A study of Mus musculus with 12 samples.

Results

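The p53 pathway genes described here are 33 mouse genes: Trp53 itself, 3 genes that control the p53 protein, and well-known transcriptional targets of p53. They were chosen by name, from what the pathway is known to contain, but with earlier results of these data known. Each was found by its Ensembl identifier among the 46078 gene identifiers of the count files. All 33 were listed in the files. Of these, 32 passed the filter on low counts and were tested, and Eda2r passed it only through the group in which its counts were highest. The remaining gene, Perp, a membrane protein of cell contacts and an apoptosis effector, had 0, 1 and 2 reads in the control vehicle libraries, 3, 3 and 4 in the Dicer KO vehicle libraries and 0 in all 6 LPS libraries. Perp was too low to test.

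p53 is a transcription factor that is kept scarce by the ubiquitin ligase Mdm2 and its partner Mdm4 and accumulates when DNA damage, nucleolar stress or oncogene activity interrupts that control. It binds a pair of short sequence motifs near its targets and raises genes that stop the cell cycle, start apoptosis, repair DNA and adjust metabolism. Mdm2 is itself a p53 target, which closes a negative feedback loop. In macrophages several of these genes also belong to the inflammatory response, so their level is set by more than p53.

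RNA was sequenced from macrophages grown for 7 days from bone marrow of male C57BL/6 mice with supernatant of L929 cells, which secrete macrophage growth factors. The Dicer KO group was LysMcre/+;Dicerfl/fl;ApoE-/- and the littermate control group was LysMcre/+;Dicer+/+;ApoE-/-, so every culture lacked a working Apoe gene. Dicer is the enzyme that cuts precursors into mature microRNAs, and LysMcre is a Cre recombinase in the Lyz2 locus, active in myeloid cells. All cultures received diluted ethanol vehicle overnight and then, for 6 h, either D-PBS (vehicle) or lipopolysaccharide (LPS), the bacterial cell wall component that activates TLR4, at a concentration the labels give as 100 ng/ul. There were 3 libraries in each of the 4 groups. Whether the 3 of a group were separate mice is not in the labels, and the p-values measure only the spread between these samples, which may be technical. In such bulk samples, fewer cells with a transcript and less of it per cell cannot be told apart.

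Counts assigned to genes ranged from 16172600 to 18886948 per library. Dicer1 reads were 2.21-fold lower in Dicer KO than in control with vehicle and 3.18-fold lower with LPS, without overlap of the groups. Lyz2 reads were 405-fold lower in Dicer KO with vehicle, although the sample titles give both genotypes the same LysMcre/+ locus; another label field calls the controls wildtype. A difference at the Lyz2 locus and the loss of Dicer cannot be told apart in the genotype comparisons. The 9 macrophage markers summed to between 7293 and 10397 CPM (depth-scaled read counts, as defined below) in every library with none at 0, and the summed markers of neutrophils reached 179.7 CPM and those of each other cell type checked at most 17.8 CPM. Single markers moved with genotype. In Dicer KO with vehicle 3 of the 9 macrophage markers were higher and 5 lower (median -0.16), beside 25.0% and 21.2% of all genes. With LPS 4 were higher and 3 lower (median -0.11), beside 28.8% and 27.0% of all genes. Of 6 dendritic cell markers 2 could be tested, and both were higher in Dicer KO with vehicle (median 1.72) and with LPS (median 1.53). The same shares of all genes apply to these 2. The part of these marker differences in the results below was not tested. In each vehicle group 1 library was unlike the other two, replicate 3 of control and replicate 2 of Dicer KO. In control, chi-square divided by its degrees of freedom reached 9.93 and 14.3 in pairs that held this library against 2.55 in the other pair, and in Dicer KO 8.42 and 11.9 against 2.30.

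Levels below are CPM on library sizes adjusted with TMM, edgeR's default scaling, and differences are log2 fold changes with their standard error from edgeR's quasi-likelihood test. A gene was called where its p, adjusted by Benjamini-Hochberg over the 13837 genes tested in that comparison, was under 0.05. TMM sets the typical gene near no change. With plain library totals instead, the median of all genes moved to -0.12 in the genotype comparison with vehicle, -0.38 in the genotype comparison with LPS, -0.58 and -0.85 in the LPS comparisons of control and Dicer KO, and -0.27 in the difference between those. Called directions that depend on this scaling are named with the gene or in the closing section. Another 8 differences changed sign with library totals without a call under either scaling, and these are not listed.

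Promoter sequence is shown first because p53 acts through a motif that can be read in it. RefSeq promoter windows of 300 bases (250 before and 50 after a start, GRCm38.p6) were matched for 25 of the 33 genes. Xpc, Perp, Zmat3, Trp53inp1, Pmaip1, Rrm2b, Tnfrsf10b and Ddb2 had no entry. The p53 half-site, a motif of 10 bases searched by its consensus on both strands, occurred without mismatch in the windows of 12 of the 25 genes (48.0%), against 9.55% of 27025 genes in the whole table. Pairs of half-sites were allowed at most 2 mismatches in all and a spacer of at most 13 bases. Only the C and G of each core, CWWG with W for A or T, had to match. Such a pair occurred in 6 of the 25 genes (24.0%), against 4.71%. The 6 were Cdkn1a, Ccng1, Bax, Sesn1, Gadd45a and Gtse1. These are matches of letters, not measured binding, and sequence outside the windows was not searched. The genes were chosen for known links to p53, so their shares are not those of an unselected set. For 5 of them the pair with 20 bases on each side is printed 5′ to 3′ on the gene's strand, with the half-sites in capitals.
Cdkn1a, chr17:29090908-29090967, plus strand: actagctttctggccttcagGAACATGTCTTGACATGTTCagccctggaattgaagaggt
Ccng1, chr11:40755442-40755501, minus strand: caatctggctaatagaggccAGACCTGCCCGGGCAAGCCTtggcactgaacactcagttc
Bax, chr7:45467059-45467119, minus strand: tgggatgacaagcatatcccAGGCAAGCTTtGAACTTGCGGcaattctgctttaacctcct
Sesn1, chr10:41887233-41887295, plus strand: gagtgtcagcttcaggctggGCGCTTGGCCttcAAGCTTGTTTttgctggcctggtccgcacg
Gadd45a, chr6:67037418-67037483, minus strand: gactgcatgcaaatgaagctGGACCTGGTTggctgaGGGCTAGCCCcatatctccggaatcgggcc
All 5 pairs lie before the start of the window that held them, the Cdkn1a pair from 51 to 32 bases and the Gadd45a pair from 56 to 31 bases before it. Cdkn1a and Sesn1 each have a window at another start, chr17:29093519-29093818 and chr10:41810324-41810623, with no half-site and no pair. By the gene bounds of GENCODE, the Cdkn1a, Ccng1 and Bax stretches lie upstream of the gene, the Gadd45a stretch spans its 5′ end, and the Sesn1 stretch lies inside the gene at an internal start. In Cdkn1a and Ccng1 the half-sites are adjacent with 1 mismatch in all, while the Bax, Sesn1 and Gadd45a pairs have spacers of 1, 3 and 6 bases and 2 mismatches. The first printed half-site of Ccng1 and of Gadd45a has CCTG, a mismatch inside the core. The genes with such pairs did not share a response: with vehicle, Cdkn1a, Ccng1, Bax and Gtse1 were higher in Dicer KO, Sesn1 was lower and Gadd45a was not called, as given by role below.

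In vehicle, most of the p53 genes were higher in Dicer KO than in control macrophages. Of the 32 tested, 21 were higher and 4 were lower, with a median of 0.43, while 25.0% of all genes were called higher and 21.2% lower, with a median of 0.01. The cell cycle genes had 6 higher and 0 lower of 7, and the cell death genes 10 higher and 1 lower of 12. Both the 21 and these 10 include Eda2r, which entered the test only through the Dicer KO vehicle group, where it was highest. The regulators had 2 higher and 0 lower of 4, the repair and nucleotide genes 1 higher and 2 lower of 5, and the metabolic genes 2 higher and 1 lower of 4. The 4 that were lower were Fas, Sesn1, Xpc and Ercc5. With library totals the counts were 18 higher and 4 lower, beside 16.1% and 33.1% of all genes.

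With LPS the genotype difference of the same genes was mixed. In Dicer KO 12 were higher and 8 lower, with a median of -0.06, against a background of 28.8% higher and 27.0% lower and a median of -0.03. The cell cycle genes had 4 higher and 2 lower, the death genes 4 higher and 1 lower, the repair genes 1 higher and 3 lower, and the metabolic genes 1 higher and 2 lower. This split depended on the scaling: with library totals 5 were higher and 18 lower, beside 13.6% and 55.1% of all genes. The plot of both scalings shows that every gene moved by a nearly constant amount.

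**Figure D1:**
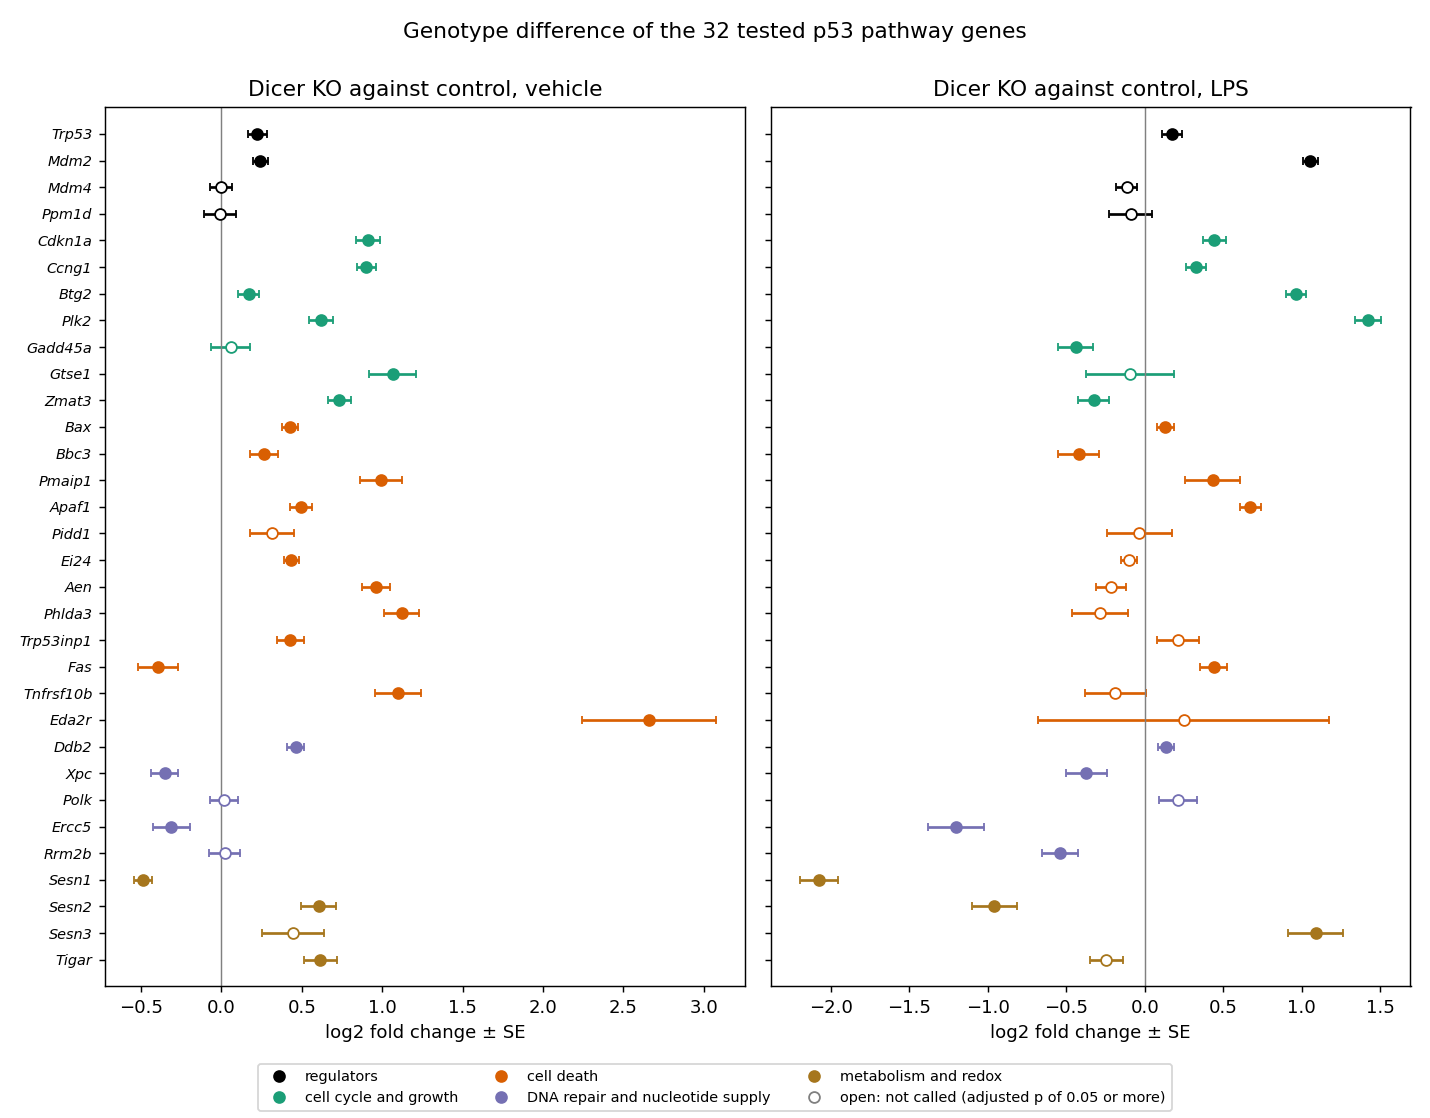
Log2 fold change of Dicer KO against control with vehicle (left) and with LPS (right) for the 32 tested genes, with bars of 1 standard error and colours by role; open points were not called. With vehicle 21 filled points lie to the right of zero and 4 to the left, and with LPS 12 and 8.

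**Figure D2:**
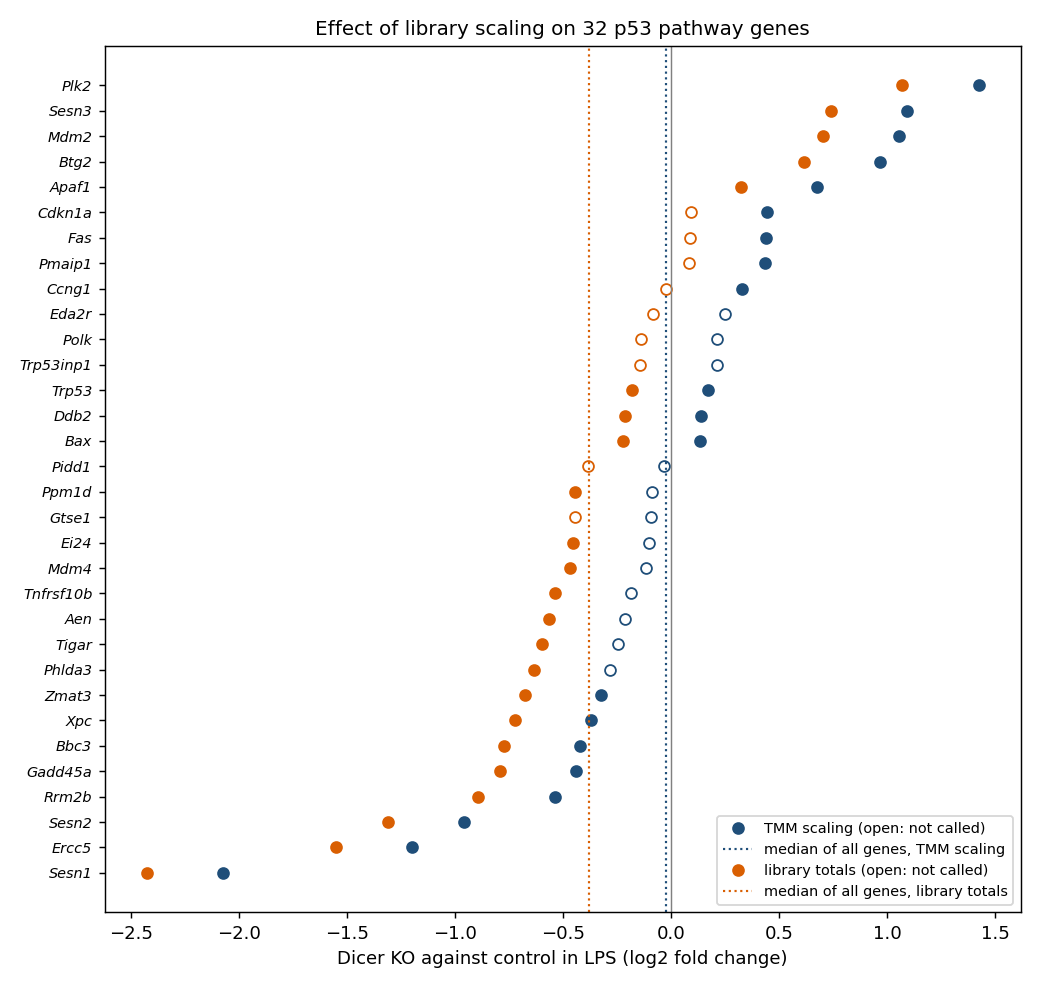
Log2 fold change of Dicer KO against control with LPS for each of the 32 genes under TMM scaling and under library totals, with dotted lines at the median of all genes under each. The 2 sets of points differ by a nearly constant shift, and the medians of all genes stand at -0.03 and -0.38.

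Among the regulators, the largest difference was in Mdm2, which was 1.18-fold higher in Dicer KO with vehicle and 2.08-fold higher with LPS. Mdm2 (chr10:117688875-117710758, minus strand, GRCm38) encodes the ubiquitin ligase that marks p53 for destruction. Its level was 143.4, 146.3 and 139.6 CPM in control vehicle and 171.9, 169.3 and 166.6 CPM in Dicer KO vehicle. With LPS it was 344.1, 319.8 and 337.9 CPM in control and 683.3, 700.5 and 699.7 CPM in Dicer KO. Every Dicer KO library was above every control library at both treatments, and every LPS library was above every vehicle library. The log2 difference between genotypes was 0.24 ± 0.05 with vehicle (edgeR adjusted p = 5.3e-04) and 1.06 ± 0.05 with LPS (edgeR adjusted p = 5.5e-12). LPS raised Mdm2 by 1.22 ± 0.05 in control and 2.04 ± 0.05 in Dicer KO, and the difference of these responses was called (0.81 ± 0.07, edgeR adjusted p = 1.1e-07).

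Trp53 (chr11:69580359-69591873, plus strand), which encodes p53 itself, moved far less. It stood at 43.3, 46.2 and 47.8 CPM in control vehicle and at 57.1, 52.7 and 50.6 CPM in Dicer KO vehicle. With LPS the libraries read 34.0, 33.2 and 33.9 CPM in control and 38.3, 36.8 and 38.7 CPM in Dicer KO. The Dicer KO libraries were above the control libraries at both treatments, and the LPS libraries below the vehicle libraries in both genotypes. The genotype difference was 0.22 ± 0.06 with vehicle (edgeR adjusted p = 0.0034) and 0.17 ± 0.06 with LPS (edgeR adjusted p = 0.029), and LPS lowered Trp53 by a log2 change of -0.44 in control and -0.49 in Dicer KO. With library totals the vehicle difference was 0.10 and not called (adjusted p = 0.156), and the LPS difference turned to -0.18 and was called (adjusted p = 0.0158). The LPS call was also lost without control LPS replicate 2 or 3, without Dicer KO LPS replicate 1 or 3 (adjusted p from 0.0568 to 0.0981), and without the filter on low counts (0.0703).

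The other regulators, Mdm4 and Ppm1d, were not called in either genotype comparison under TMM. With library totals both were lower in Dicer KO with LPS, Mdm4 by -0.47 (adjusted p = 1.1e-05) and Ppm1d by -0.44 (adjusted p = 0.0090). Mdm4, the partner of Mdm2 that holds p53 inactive, read 68.9, 76.0 and 69.6 CPM in control vehicle and 80.4, 64.7 and 68.6 CPM in Dicer KO vehicle. With LPS it read 120.6, 127.6 and 131.2 CPM in control and 121.1, 114.5 and 114.9 CPM in Dicer KO. The genotypes overlapped at both treatments, and all LPS libraries were above all vehicle libraries. LPS raised it by 0.82 ± 0.07 in control and 0.71 ± 0.07 in Dicer KO, but with library totals the Dicer KO value was -0.03 and not called. Ppm1d, the phosphatase that switches off p53 and its kinases, read 11.2, 10.2 and 10.6 CPM in control vehicle and 9.77, 11.8 and 10.3 CPM in Dicer KO vehicle. Its LPS values were 5.37, 5.69 and 4.47 CPM in control and 4.81, 4.96 and 4.82 CPM in Dicer KO. The genotypes overlapped again, and LPS lowered Ppm1d by -1.04 ± 0.11 in control and -1.12 ± 0.12 in Dicer KO.

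**Figure D3:**
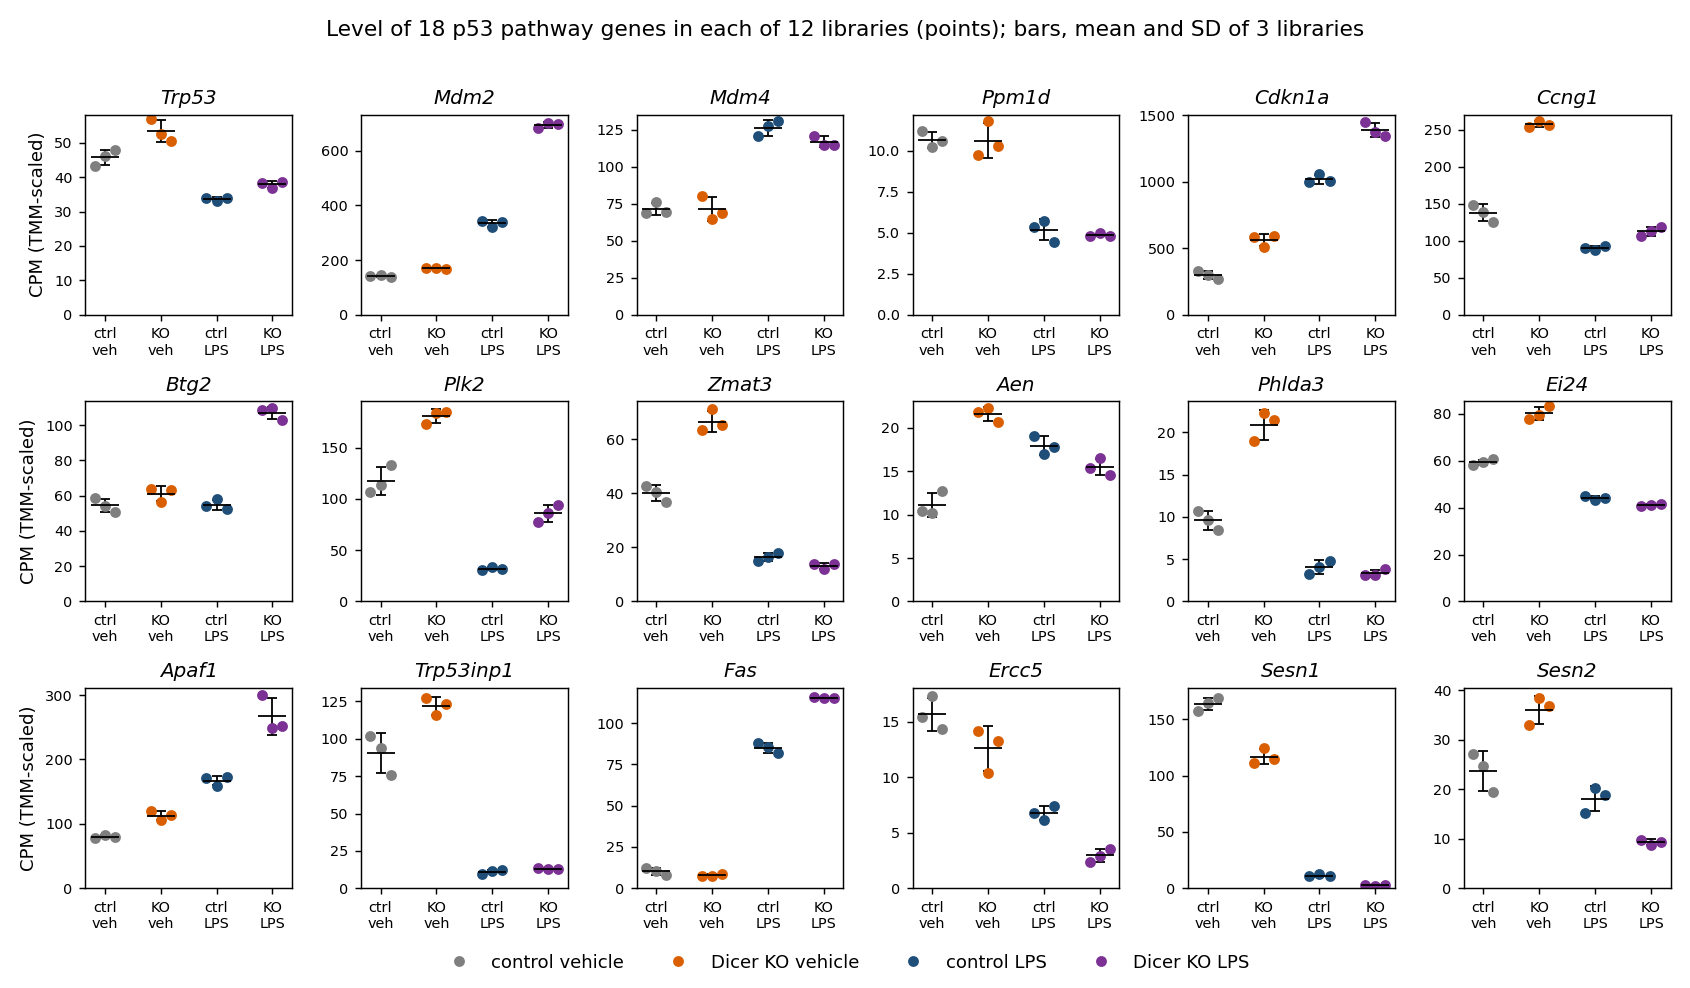
CPM of 18 p53 pathway genes in each of the 12 libraries (points), with the mean and SD of the 3 libraries of a group as bars; each panel has its own axis from 0. Mdm2 reaches 683.3 to 700.5 CPM in Dicer KO with LPS, and Sesn1 falls to 2.25 to 2.93 CPM there.

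Cdkn1a (chr17:29090976-29100727, plus strand) encodes p21, the cyclin-dependent kinase inhibitor that carries much of the p53 cell cycle arrest. It was higher in Dicer KO at both treatments and rose with LPS in both genotypes. Control vehicle libraries held 326.6, 299.01 and 268.3 CPM and Dicer KO vehicle libraries 581.9, 508.8 and 591.0 CPM. With LPS the values were 999.0, 1060.1 and 1004.9 CPM in control and 1447.8, 1377.2 and 1345.3 CPM in Dicer KO. None of the 4 groups overlapped another. The genotype difference was 0.91 ± 0.07 with vehicle (1.88-fold, edgeR adjusted p = 1.3e-08) and 0.44 ± 0.07 with LPS (1.36-fold, edgeR adjusted p = 3.4e-05). With library totals the LPS difference was 0.09 and not called (adjusted p = 0.262). LPS raised Cdkn1a 3.43-fold in control and 2.48-fold in Dicer KO, a smaller response in Dicer KO by -0.47 ± 0.10 (edgeR adjusted p = 0.0016). Per kilobase of exon it had the highest level of the 33 genes in each group, from 83.9 ± 8.22 CPM per kilobase (SD, n = 3) in control vehicle to 391.2 ± 14.8 in Dicer KO LPS. Of its exon bases, 7.68% overlap AC167363.2 on the opposite strand, whose reads cannot be told apart as the strand setting of the counting is not given.

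Ccng1, cyclin G1, a target that acts back on Mdm2, had the smallest adjusted p of the 32 genes for genotype in vehicle. Control vehicle libraries held 148.3, 139.3 and 125.6 CPM and Dicer KO vehicle libraries 253.8, 261.8 and 256.4 CPM. With LPS they held 90.5, 86.9 and 92.5 CPM in control and 106.9, 112.7 and 118.9 CPM in Dicer KO. Dicer KO was above control at both treatments without overlap, and LPS libraries were below vehicle libraries. The genotype difference was 0.90 ± 0.06 with vehicle (edgeR adjusted p = 9.9e-10) and 0.33 ± 0.06 with LPS (edgeR adjusted p = 1.7e-04), the latter -0.03 and not called with library totals. The fall with LPS was larger in Dicer KO (-1.19 ± 0.06) than in control (-0.61 ± 0.06), and the interaction was called (-0.57 ± 0.08, edgeR adjusted p = 4.4e-05).

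Of the cell cycle genes, Plk2 and Btg2 differed most between genotypes with LPS. Plk2, a polo-like kinase, read 106.6, 113.7 and 132.7 CPM in control vehicle and 173.1, 184.0 and 184.9 CPM in Dicer KO vehicle. After LPS the values were 30.3, 33.7 and 32.1 CPM in control and 77.7, 86.4 and 93.6 CPM in Dicer KO. LPS libraries were the low ones in both genotypes, and Dicer KO libraries were above control libraries throughout. The genotype difference was 0.62 ± 0.07 with vehicle (edgeR adjusted p = 4.1e-06) and 1.42 ± 0.09 with LPS (edgeR adjusted p = 3.9e-10). LPS lowered Plk2 3.67-fold in control and 2.10-fold in Dicer KO, and the responses differed by 0.81 ± 0.11 (edgeR adjusted p = 3.9e-05).

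Btg2, an antiproliferative protein that recruits the mRNA deadenylation machinery, read 58.4, 54.3 and 50.7 CPM in control vehicle and 63.9, 56.4 and 63.3 CPM in Dicer KO vehicle. In LPS libraries it read 54.1, 57.9 and 52.2 CPM in control and 108.5, 109.5 and 103.1 CPM in Dicer KO. Only the Dicer KO LPS libraries stood apart from the other 3 groups, which overlapped. The genotype difference with LPS was 0.97 ± 0.06 (edgeR adjusted p = 5.2e-10). In vehicle it was 0.17 ± 0.06 (edgeR adjusted p = 0.035). That call was lost without control vehicle replicate 2 or 3 or Dicer KO vehicle replicate 1 or 3 (adjusted p from 0.0887 to 0.122), with library totals (0.621), without the filter (0.0844) and when only those 2 groups were fitted (0.0957). LPS changed Btg2 by 0.01 ± 0.06 in control, which was not called, and by 0.81 ± 0.06 in Dicer KO, which was. With library totals these became -0.51, called, and 0.06, not called. The interaction was 0.80 ± 0.09 (edgeR adjusted p = 2.7e-06).

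Zmat3, an RNA-binding zinc finger protein that regulates splicing and mRNA stability, changed sides between the treatments. It read 42.5, 40.6 and 36.7 CPM in control vehicle and 63.4, 71.0 and 65.0 CPM in Dicer KO vehicle. With LPS it read 14.9, 16.5 and 18.05 CPM in control and 13.7, 12.02 and 13.9 CPM in Dicer KO. The Dicer KO libraries were thus above control in vehicle and below control with LPS, without overlap. The difference was 0.73 ± 0.07 with vehicle (edgeR adjusted p = 1.5e-07) and -0.33 ± 0.10 with LPS (edgeR adjusted p = 0.0080), the latter not called without Dicer KO LPS replicate 2 (adjusted p = 0.0504). The interaction was -1.06 ± 0.12 (edgeR adjusted p = 2.7e-06). The remaining cell cycle genes were Gtse1 and Gadd45a. Gtse1, a microtubule-binding protein of the G2 phase, averaged 6.49 ± 1.34 CPM in control and 13.6 ± 2.24 CPM in Dicer KO with vehicle (SD, n = 3) and under 2 CPM in both LPS groups. Its genotype difference was called with vehicle (1.07 ± 0.15) and not with LPS (-0.09 ± 0.28). Gadd45a, a stress sensor induced by growth arrest, averaged 9.60 ± 0.52 and 10.03 ± 1.72 CPM in the vehicle groups, 23.3 ± 3.18 CPM in control LPS and 17.2 ± 1.11 CPM in Dicer KO LPS. It was lower in Dicer KO with LPS by -0.44 ± 0.11 (edgeR adjusted p = 0.0029). Of its exon bases, 19.1% overlap E230016M11Rik on the opposite strand.

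In the cell death group, effectors close to the mitochondrion were higher in Dicer KO with vehicle. Bax, which forms pores in the outer mitochondrial membrane, averaged 96.5 ± 4.41 CPM in control and 129.6 ± 4.73 CPM in Dicer KO (SD, n = 3), a difference of 0.43 ± 0.05 (edgeR adjusted p = 2.1e-06). Pmaip1 (Noxa), which neutralises Mcl1, averaged 19.6 ± 3.94 and 39.0 ± 5.94 CPM, a difference of 0.99 ± 0.13 (edgeR adjusted p = 3.9e-05). Bbc3 (Puma), which neutralises all anti-apoptotic Bcl2 relatives, averaged 18.3 ± 1.21 and 22.0 ± 1.40 CPM, a difference of 0.26 ± 0.09 (edgeR adjusted p = 0.021). Omitting replicate 3 of control vehicle (adjusted p = 0.0562) or replicate 2 or 3 of Dicer KO vehicle (0.0766 and 0.0586) ended the Bbc3 call, as did fits without both libraries that were unlike their groups (0.17, adjusted p = 0.135) or on library totals (0.14, 0.227). In 12.2% of its exon bases Bax overlaps Gm45808 on the same strand.

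With LPS these 3 effectors were lower than with vehicle in both genotypes, and their genotype differences were small or opposed. Bbc3 averaged 7.94 ± 1.27 CPM in control LPS and 5.94 ± 0.49 CPM in Dicer KO LPS (SD, n = 3), a difference of -0.42 ± 0.13 (edgeR adjusted p = 0.010) that was not called without control LPS replicate 3 (0.0765). Bax differed by 0.13 ± 0.05 (edgeR adjusted p = 0.044) and turned to -0.22, called, with library totals. Its call was lost when replicate 1 of control vehicle, replicate 3 of Dicer KO vehicle, any replicate of control LPS or replicate 2 or 3 of Dicer KO LPS was omitted (adjusted p from 0.0520 to 0.145), and without the filter (0.123) and with only those 2 groups fitted (0.0781). Pmaip1 differed by 0.43 ± 0.17 (edgeR adjusted p = 0.049). Omitting replicate 3 of Dicer KO vehicle or any of the 6 LPS libraries ended that call (adjusted p from 0.0565 to 0.144), and so did a fit without the filter (0.0829) or with library totals (0.692).

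Apaf1, the scaffold of the apoptosome that activates caspase 9, was higher in Dicer KO at both treatments. Its libraries read 78.1, 83.1 and 78.8 CPM in control vehicle and 119.6, 105.4 and 113.4 CPM in Dicer KO vehicle. With LPS they read 170.7, 158.5 and 172.7 CPM in control and 299.7, 249.3 and 252.0 CPM in Dicer KO. The groups did not overlap, and LPS libraries were above vehicle libraries in each genotype. The difference was 0.50 ± 0.07 with vehicle (edgeR adjusted p = 1.4e-05) and 0.67 ± 0.07 with LPS (edgeR adjusted p = 1.3e-07), and the interaction was not called (0.18 ± 0.10, edgeR adjusted p = 0.17).

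Aen, a nuclease that digests DNA during apoptosis, responded to LPS in opposite directions in the 2 genotypes. It read 10.4, 10.1 and 12.7 CPM in control vehicle and 21.8, 22.2 and 20.6 CPM in Dicer KO vehicle. Under LPS its values were 19.1, 17.0 and 17.7 CPM in control and 15.4, 16.4 and 14.5 CPM in Dicer KO. Control libraries were higher with LPS than with vehicle, and Dicer KO libraries were lower. LPS raised Aen by 0.69 ± 0.09 in control (edgeR adjusted p = 1.2e-06) and lowered it by -0.48 ± 0.09 in Dicer KO (edgeR adjusted p = 8.8e-05), with an interaction of -1.17 ± 0.13 (edgeR adjusted p = 2.0e-06). With library totals the rise in control was 0.17 and not called (adjusted p = 0.0804). The genotype difference was 0.96 ± 0.09 with vehicle (edgeR adjusted p = 7.8e-08) and -0.21 ± 0.09 with LPS, not called (edgeR adjusted p = 0.063). The LPS difference was called without control vehicle replicate 3 (adjusted p = 0.0299), when only those 2 groups were fitted (0.0251), without both libraries that were unlike their groups (0.0304) and with library totals (-0.57, 3.2e-05).

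Under TMM, Phlda3, Ei24 and Trp53inp1 were higher in Dicer KO with vehicle and not called with LPS. Phlda3, an inhibitor of the survival kinase Akt, read 10.7, 9.61 and 8.48 CPM in control vehicle and 18.9, 22.3 and 21.5 CPM in Dicer KO vehicle. Its LPS values were 3.28, 4.12 and 4.84 CPM in control and 3.16, 3.08 and 3.84 CPM in Dicer KO. The vehicle groups stood apart and the LPS groups overlapped. With library totals the LPS difference was -0.64 and called (adjusted p = 0.0049). The vehicle difference was 1.12 ± 0.11 (edgeR adjusted p = 1.9e-07), and the interaction was -1.41 ± 0.21 (edgeR adjusted p = 4.9e-05).

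Ei24, a membrane protein of the endoplasmic reticulum linked to autophagy, read 58.2, 59.2 and 60.5 CPM in control vehicle and 77.9, 79.3 and 83.2 CPM in Dicer KO vehicle. After LPS the values were 45.0, 43.0 and 44.2 CPM in control and 40.9, 41.0 and 41.4 CPM in Dicer KO. The genotypes did not overlap at either treatment, with Dicer KO above in vehicle and below with LPS. The difference was 0.43 ± 0.05 with vehicle (edgeR adjusted p = 6.7e-07), and with LPS it was -0.10 ± 0.05 and not called (edgeR adjusted p = 0.11), but -0.45 and called with library totals (4.4e-07). The interaction was -0.54 ± 0.07 (edgeR adjusted p = 1.4e-05). In 6.66% of its exon bases Ei24 overlaps Gm26787 on the opposite strand.

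Trp53inp1, a stress protein that acts in autophagy and in the nucleus with p53, read 102.1, 94.0 and 75.8 CPM in control vehicle and 127.5, 115.7 and 122.9 CPM in Dicer KO vehicle. In LPS libraries it read 9.83, 11.8 and 11.97 CPM in control and 13.7, 12.7 and 12.6 CPM in Dicer KO. The genotypes did not overlap at either treatment, and the LPS libraries were far below the vehicle libraries. LPS lowered it 8.08-fold in control and 9.40-fold in Dicer KO, and the interaction was not called (-0.22 ± 0.16, edgeR adjusted p = 0.33), except with library totals (-0.44, adjusted p = 0.043). The genotype difference was 0.43 ± 0.08 with vehicle (edgeR adjusted p = 7.3e-04) and 0.21 ± 0.13 with LPS (edgeR adjusted p = 0.20).

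Among the death receptors, Fas was the gene that LPS raised most of the 32. Fas, the receptor for Fas ligand, read 12.4, 10.4 and 7.81 CPM in control vehicle and 7.45, 7.36 and 8.49 CPM in Dicer KO vehicle. With LPS it read 87.8, 85.2 and 82.1 CPM in control and 115.7, 115.1 and 115.2 CPM in Dicer KO. The vehicle groups overlapped, and with LPS every Dicer KO library was above every control library. LPS raised Fas 8.31-fold in control and 14.8-fold in Dicer KO, a difference of 0.83 ± 0.15 (edgeR adjusted p = 4.9e-04). The genotype difference with LPS was 0.44 ± 0.09 (edgeR adjusted p = 3.4e-04) and was 0.09, not called, with library totals (adjusted p = 0.385). With vehicle it was -0.39 ± 0.12 (edgeR adjusted p = 0.017), a call lost without control vehicle replicate 1 or 2 or Dicer KO vehicle replicate 1 or 2 (adjusted p from 0.0523 to 0.103) and with only those 2 groups fitted (0.0742). Without control vehicle replicate 1 its value was -0.23.

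The remaining death genes were low in all groups. Tnfrsf10b, the TRAIL receptor, averaged 2.55 ± 0.12 CPM in control and 5.48 ± 0.28 CPM in Dicer KO with vehicle (SD, n = 3), a difference of 1.10 ± 0.14 (edgeR adjusted p = 7.3e-06). It averaged 2.48 ± 0.50 and 2.18 ± 0.26 CPM in the LPS groups, where the difference was -0.19 ± 0.19 and not called, but -0.54 and called with library totals (adjusted p = 0.0209). Eda2r, the ectodysplasin A2 receptor, had 5, 7 and 1 reads in control vehicle, 23, 26 and 23 reads in Dicer KO vehicle, 3, 0 and 2 in control LPS and 1, 2 and 2 in Dicer KO LPS. Its vehicle difference was called (2.66 ± 0.42, edgeR adjusted p = 4.9e-05), but the gene entered the test through the Dicer KO vehicle group alone. Pidd1, the scaffold of the caspase 2 platform, averaged 3.75 ± 0.30 and 4.66 ± 0.58 CPM in the vehicle groups, a difference of 0.31 ± 0.14 that was not called (edgeR adjusted p = 0.071). It passed when replicate 3 of control vehicle (adjusted p = 0.0471) or replicate 1 of Dicer KO vehicle (0.0312) was omitted.

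Of the 5 repair and nucleotide genes, 2 were lower in Dicer KO with vehicle and 3 with LPS. Ercc5, the endonuclease that cuts 3′ of the lesion in nucleotide excision repair, read 15.4, 17.3 and 14.3 CPM in control vehicle and 14.2, 10.4 and 13.3 CPM in Dicer KO vehicle. Under LPS its values were 6.81, 6.17 and 7.44 CPM in control and 2.40, 2.93 and 3.54 CPM in Dicer KO. All Dicer KO libraries were below all control libraries at the same treatment, narrowly so in vehicle. The difference was -1.20 ± 0.18 with LPS (2.30-fold lower, edgeR adjusted p = 1.4e-05) and -0.31 ± 0.11 with vehicle (edgeR adjusted p = 0.033). The vehicle call was lost without control vehicle replicate 1 or 2 or Dicer KO vehicle replicate 2 or 3 (adjusted p from 0.0518 to 0.183), the value without Dicer KO vehicle replicate 2 being -0.19. It was also lost in DESeq2 (0.0620) and with only those 2 groups fitted (0.0644).

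Xpc, which recognises distorted DNA, averaged 27.7 ± 2.12 CPM in control and 21.7 ± 1.13 CPM in Dicer KO with vehicle (SD, n = 3), a difference of -0.35 ± 0.08 (edgeR adjusted p = 0.0018). With LPS it averaged 7.34 ± 0.97 and 5.69 ± 0.53 CPM with overlap, a difference of -0.37 ± 0.13 (edgeR adjusted p = 0.020). That call was lost without control LPS replicate 2 or 3 or Dicer KO LPS replicate 1 or 3 (adjusted p from 0.0503 to 0.0825) and in DESeq2 (0.0629). Ddb2, the partner that finds ultraviolet lesions ahead of Xpc, went the other way, from 56.6 ± 2.48 to 78.0 ± 3.92 CPM with vehicle (0.46 ± 0.05, edgeR adjusted p = 1.2e-06). With LPS it averaged 96.2 ± 2.98 and 105.8 ± 2.32 CPM, a difference of 0.14 ± 0.05 (edgeR adjusted p = 0.032) that turned to -0.22, called, with library totals. The LPS call for Ddb2 was lost without control LPS replicate 1 or 2 or Dicer KO LPS replicate 2 or 3 (adjusted p from 0.0547 to 0.157), without the filter (0.0922) and with only those 2 groups fitted (0.0520). Its exons overlap those of Acp2 on the opposite strand over 23.8% of their bases. Rrm2b, the p53-inducible subunit of ribonucleotide reductase, averaged 14.7 ± 1.02 and 14.9 ± 1.54 CPM with vehicle and 13.3 ± 0.82 and 9.12 ± 1.08 CPM with LPS, where it was lower in Dicer KO (-0.54 ± 0.11, edgeR adjusted p = 4.6e-04). Its exons overlap Gm49085 on the opposite strand over 8.04% of their bases. Polk, a translesion polymerase, was not called for genotype at either treatment and fell with LPS by -1.35 ± 0.10 in control and -1.15 ± 0.10 in Dicer KO.

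The 3 sestrins, which restrain mTORC1 and oxidative stress, moved in different directions. Sesn1 (chr10:41809935-41908424, plus strand), whose promoter pair is printed above, read 157.8, 164.2 and 169.2 CPM in control vehicle and 111.6, 124.3 and 114.6 CPM in Dicer KO vehicle. After LPS the values were 10.5, 12.4 and 10.8 CPM in control and 2.93, 2.25 and 2.79 CPM in Dicer KO. No group overlapped another, and the Dicer KO LPS libraries were the lowest of the 12. Dicer KO was lower by -0.49 ± 0.06 with vehicle (edgeR adjusted p = 1.4e-06) and by -2.08 ± 0.12 with LPS (4.22-fold, edgeR adjusted p = 1.2e-10). LPS lowered Sesn1 14.6-fold in control and 43.9-fold in Dicer KO, and the responses differed by -1.59 ± 0.14 (edgeR adjusted p = 1.6e-07). Both LPS responses had the smallest adjusted p of the 32 genes.

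Sesn2 was higher in Dicer KO with vehicle and lower with LPS. It read 27.1, 24.6 and 19.3 CPM in control vehicle and 32.9, 38.5 and 36.7 CPM in Dicer KO vehicle. With LPS it read 15.2, 20.2 and 18.9 CPM in control and 9.84, 8.79 and 9.34 CPM in Dicer KO. The genotypes stood apart at both treatments, in opposite order. The difference was 0.60 ± 0.11 with vehicle (edgeR adjusted p = 3.4e-04) and -0.96 ± 0.14 with LPS (edgeR adjusted p = 3.7e-05), with an interaction of -1.56 ± 0.18 (edgeR adjusted p = 1.1e-05). The control libraries overlapped between treatments, and the fall with LPS in control (-0.39 ± 0.12, edgeR adjusted p = 0.0077) was not called without control LPS replicate 1 (0.0523).

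Sesn3 averaged 2.47 ± 0.71 and 3.36 ± 0.61 CPM with vehicle and 4.51 ± 0.71 and 9.57 ± 0.25 CPM with LPS in control and Dicer KO (SD, n = 3). It was higher in Dicer KO with LPS by 1.09 ± 0.17 (edgeR adjusted p = 3.0e-05). With vehicle the difference was 0.44 ± 0.19 and not called (edgeR adjusted p = 0.067), and it was called without control vehicle replicate 1 (0.70, adjusted p = 0.0074). Tigar, a phosphatase that diverts glycolytic sugar to the pentose phosphate pathway, averaged 6.70 ± 0.58 and 10.3 ± 0.21 CPM with vehicle, a difference of 0.62 ± 0.10 (edgeR adjusted p = 1.1e-04). With LPS it averaged 13.1 ± 1.17 CPM in control and 11.1 ± 1.22 CPM in Dicer KO, a difference of -0.25 ± 0.11 that was not called (edgeR adjusted p = 0.057). It passed when replicate 3 of control vehicle (0.0445), replicate 2 of control LPS (0.0398) or replicate 2 of Dicer KO LPS (0.0243) was omitted, in the fit of only those 2 groups (0.0336) and without both libraries that were unlike their groups (0.0388). With library totals it was -0.60 (adjusted p = 7.4e-05). Tigar overlaps Platr31 on the opposite strand over 3.34% of its exon bases.

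Over both treatments, 10 genes were called higher in Dicer KO in each under TMM, which were Trp53, Mdm2, Cdkn1a, Ccng1, Btg2, Plk2, Bax, Pmaip1, Apaf1 and Ddb2. Sesn1, Xpc and Ercc5 were called lower in each. Bbc3, Sesn2 and Zmat3 were higher with vehicle and lower with LPS, and Fas was lower with vehicle and higher with LPS. Another 8 were called only in vehicle and 3 only in LPS, while Mdm4, Ppm1d, Pidd1 and Polk were called in neither. These classes were not counted over all genes. With library totals Trp53, Bax and Ddb2 were called lower with LPS, and Ccng1, Cdkn1a, Pmaip1 and Fas were not called with LPS. Trp53, Btg2 and Bbc3 were then not called with vehicle. Aen, Ei24, Phlda3, Tigar, Tnfrsf10b, Mdm4 and Ppm1d gained a call as lower with LPS. A call in 1 treatment alone does not show that the treatments differ, which the interaction tests.

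LPS lowered more of the p53 genes than it raised in both genotypes. In control 10 were higher and 18 lower with LPS, with a median of -0.43, beside 38.0% and 41.1% of all genes and a median of -0.06. In Dicer KO 9 were higher and 22 lower, with a median of -1.10, beside 37.4% and 42.7% and a median of -0.10. The 22 include Eda2r, which entered the test only through the Dicer KO vehicle group. The genes raised in both genotypes were Mdm2, Mdm4, Cdkn1a, Gadd45a, Apaf1, Fas, Ddb2 and Sesn3. With library totals Ddb2 was lowered in Dicer KO (-0.31), where Gadd45a (0.03) and Mdm4 (-0.03) were not called. Sesn3 was then not called in control (0.34). Rrm2b (-0.67) and Tnfrsf10b (-0.56), not called in control under TMM, were called lower there with library totals. The counts with library totals were 8 higher and 21 lower in control and 5 higher and 24 lower in Dicer KO, beside 22.2% and 19.1% of all genes called higher and 63.1% and 69.5% called lower. The 18 lowered in both under TMM ran from Sesn1 to Bax in control, from a log2 change of -3.87 to -0.33.

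The LPS response differed between genotypes in 21 of the 32 genes. In 17 the value was more negative in Dicer KO than in control and in 4 it was more positive, with a median of -0.48, while 18.8% of all genes were called more negative and 14.9% more positive, with a median of -0.04. The 4 were Mdm2, Btg2, Plk2 and Fas. All 7 cell cycle genes had a called interaction, 2 positive and 5 negative, and 6 of the 12 death genes, 3 of the 5 repair genes and 3 of the 4 metabolic genes had a called negative one. With library totals 4 were positive and 21 negative, beside 7.21% and 37.1% of all genes, and those added were Trp53 (-0.28), Mdm4 (-0.34), Pmaip1 and Trp53inp1. The interaction for Gadd45a (-0.50 ± 0.17, edgeR adjusted p = 0.026) was lost when replicate 1 or 2 of control vehicle, replicate 2 of control LPS, replicate 2 of Dicer KO vehicle or replicate 2 or 3 of Dicer KO LPS was omitted (adjusted p from 0.0510 to 0.0795).

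The interaction for Pmaip1 (-0.56 ± 0.22, edgeR adjusted p = 0.065) was not called, and it was called without replicate 1 or 2 of control vehicle or replicate 2 of Dicer KO vehicle (adjusted p from 0.0110 to 0.0460), without both libraries that were unlike their groups (-0.52, 0.0012) and with library totals (-0.78, 0.0103). That for Sesn3 (0.64 ± 0.26, edgeR adjusted p = 0.064) passed when replicate 3 of control vehicle, replicate 1 of control LPS or replicate 1 of Dicer KO vehicle was omitted (adjusted p from 0.0187 to 0.0446), without both unlike libraries (0.0202), without the filter (0.0292) and with the size factors of DESeq2 (0.0478).

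**Figure D4:**
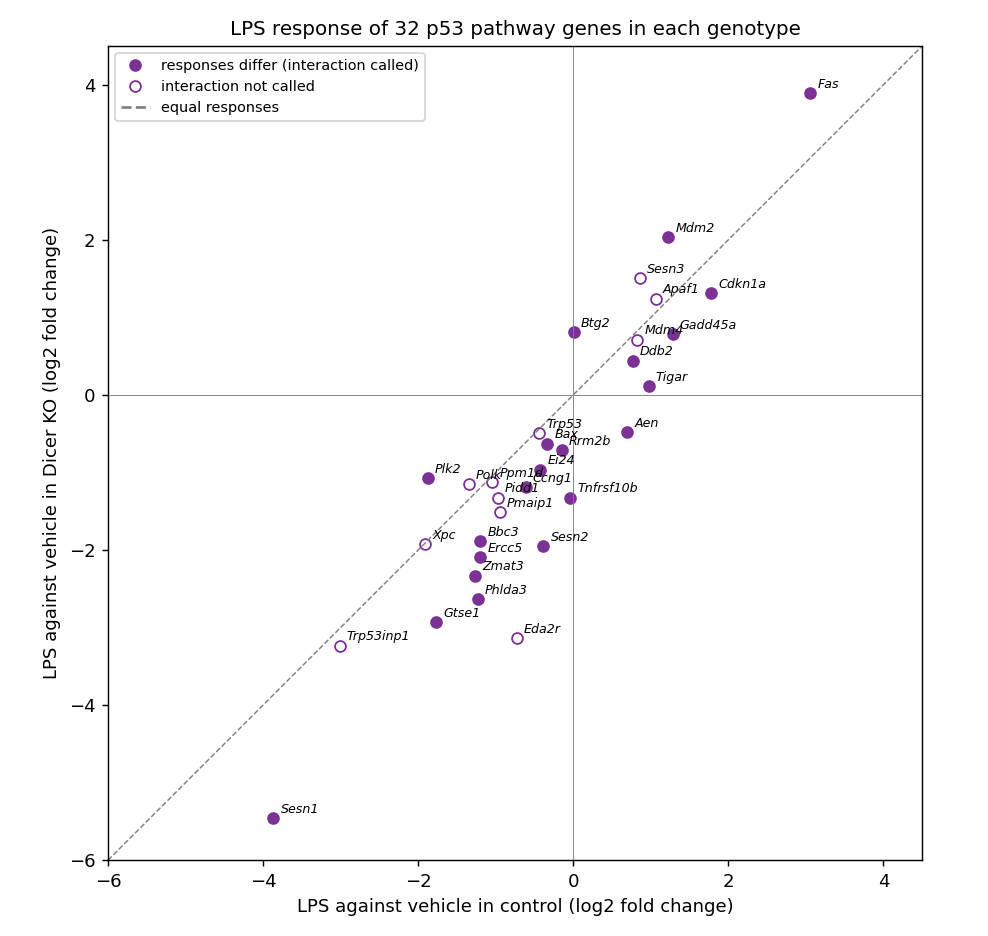
LPS response in Dicer KO against LPS response in control for the 32 genes (log2 fold change on both axes), with filled points where the interaction was called and a dashed line of equal responses. The 4 filled points above the line are Mdm2, Btg2, Plk2 and Fas, and the other 17 filled points lie below it.

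Genes that act on p53 without being its main targets were counted from a second list of 25 kinases, cofactors and modifiers, of which 22 were tested. With vehicle 8 were higher and 3 lower in Dicer KO (median 0.11), beside 25.0% and 21.2% of all genes, and with LPS 13 were higher and 5 lower (median 0.34), beside 28.8% and 27.0%. The counts of this list and of those below are given under TMM only. With library totals the median of all genes in the genotype comparison with LPS moved to -0.38. The genes with the smallest adjusted p with vehicle were Daxx, Pml, Ppp1r13b and Ppp1r13l. Daxx, a histone chaperone that binds Mdm2, averaged 56.3 ± 3.20 CPM in control and 159.1 ± 27.8 CPM in Dicer KO with vehicle (SD, n = 3). With LPS it averaged 366.7 ± 16.2 and 798.03 ± 14.5 CPM. The log2 difference with LPS was 1.12 ± 0.09, and both differences were called. Pml, the scaffold of nuclear bodies where p53 is modified, differed by 1.31 ± 0.11 with vehicle. Both Daxx and Pml are also interferon-induced. Ppp1r13b (ASPP1), which directs p53 to death genes, was higher by 0.57 ± 0.08 with vehicle and 0.72 ± 0.08 with LPS. Ppp1r13l (iASPP), which inhibits p53, was lower by -0.86 ± 0.14 with vehicle and -2.00 ± 0.19 with LPS. With LPS the kinase Atm was also higher (1.19 ± 0.12), from 17.0 ± 2.86 to 38.7 ± 5.07 CPM.

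A second list of 27 p53 targets outside the 33, of which 25 were tested, had 10 higher and 4 lower with vehicle (median 0.14), beside 25.0% and 21.2% of all genes. With LPS it had 9 higher and 9 lower (median -0.12), beside 28.8% and 27.0%. With vehicle the smallest adjusted p values belonged to Tap1, Slc19a2, Tnfaip8 and Steap3. Tap1, the antigen peptide transporter, was higher by 1.34 ± 0.08, the thiamine transporter Slc19a2 by 1.08 ± 0.08 and the metalloreductase Steap3 by 0.86 ± 0.10. Tnfaip8 was lower by -0.37 ± 0.05. In the genotype comparison with LPS, Slc19a2 was lower (-0.56 ± 0.14, edgeR adjusted p = 0.0024) and Tnfaip8 was lower (-0.29 ± 0.05). Tap1 was higher there (0.90 ± 0.08) and Steap3 was not called (0.09 ± 0.16). LPS itself raised Tap1 6.47-fold in control. With LPS, Trp53i11 averaged 19.8 ± 0.47 CPM in control and 56.3 ± 1.86 CPM in Dicer KO (SD, n = 3), a difference of 1.51 ± 0.08, and Zfp385a was higher by 0.93 ± 0.06.

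Markers of proliferation and of interferon signalling moved with some of these comparisons. The 25 S phase and mitosis genes summed to 570.4, 583.8 and 907.3 CPM in control vehicle and 695.9, 916.0 and 767.3 CPM in Dicer KO vehicle, the highest of each group being the library that stood apart. They summed to between 361.9 and 377.6 CPM in all 6 LPS libraries. LPS lowered 24 of the 25 in each genotype, with medians of -2.19 in control and -2.46 in Dicer KO, beside 41.1% and 42.7% of all genes. The 1 that rose was Mki67, by 0.99 ± 0.19 in control and 1.41 ± 0.19 in Dicer KO. With vehicle 2 of the 25 were higher in Dicer KO and 1 was lower, beside 25.0% and 21.2% of all genes. The 2 were Pcna and Mcm6, and the 1 was Bub1. Pcna, the replication clamp and itself a p53 target, differed by 0.60 ± 0.12. With LPS 1 was higher in Dicer KO and 6 were lower, beside 28.8% and 27.0% of all genes. Of the 6, E2f1 differed by -1.17 ± 0.10. The 12 interferon-stimulated genes were all higher in Dicer KO at both treatments, with medians of 2.88 and 0.95. Of all genes, 25.0% were higher with vehicle and 28.8% with LPS. They summed to between 977.6 and 1156.2 CPM in control vehicle, 6397 to 9488 CPM in Dicer KO vehicle, 15031 to 17753 CPM in control LPS and 57689 to 58906 CPM in Dicer KO LPS. Bst2, Oasl2 and Irf7 had the smallest adjusted p values of that list with vehicle, and Bst2 was higher by 1.67 ± 0.06. The part of interferon signalling and of proliferation in the p53 gene differences was not tested.

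Seed matches of macrophage microRNAs are given because mature microRNAs depend on Dicer; they were not measured in these libraries. The longest annotated 3′UTR of each of 32 members was searched for the complement of the seed (bases 2 to 8) of 8 microRNAs, and the same was done for 11807 tested genes. The median 3′UTR was 1767 bases for the members and 1346 bases for all. The mature sequences of the pair discussed next are printed 5′ to 3′ with the seed in capitals, followed by a target stretch with the match in capitals.
miR-17-5p: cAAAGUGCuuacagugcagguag
miR-155-5p: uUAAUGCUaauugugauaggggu
Cdkn1a, match to miR-17-5p: agacctgaataGCACTTTggaaaaatgag
Trp53inp1, match to miR-155-5p: acactaacacaAGCATTAacaggtgattt
For miR-17-5p, 5 of 32 members (15.6%) had a match against 15.0% of all genes, and these were Ccng1, Cdkn1a, Sesn2, Sesn3 and Trp53inp1. For miR-155-5p, 6 of 32 (18.8%) had a match against 9.67%, and these were Aen, Apaf1, Eda2r, Pmaip1, Tnfrsf10b and Trp53inp1. For the other 6 microRNAs the share of members with a match ran from 3.12% for miR-223-3p, against 9.88% of all genes, to 21.9% for miR-34a-5p, against 18.9%. A match describes letters only.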

How the data were processed

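For each of 12 libraries the authors deposited raw counts of reads per Ensembl gene identifier, with tallies of unassigned reads at the end. Per the labels' protocols the kit was a stranded mRNA kit, and the submitters' processing notes name STAR 2.5, DESeq2 and the builds mm10 and GRCm38.p5. Which program counted the reads, on which strand and with which annotation is not given in the sources used here. Between 41.7 and 43.3% of reads were assigned to genes, and reads assigned to none stayed out of library sizes.

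Symbols, gene positions and exon lengths came from GENCODE M21 (GRCm38), which matched 45143 of 46078 identifiers; the others held 0.141% of counts. Counts were tested with edgeR 4.0.16 in R 4.3.3 (filterByExpr, TMM with factors from 70.7 to 131% of library size, robust quasi-likelihood fit to all 12 libraries with 1 mean per group, Benjamini-Hochberg over 13837 genes within each of 5 comparisons, two-sided). The biological coefficient of variation was 6.30%. The script was tested on simulated data. No p-value was computed over the members as a set.

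The members, lists and sequence searches were chosen with earlier results of these data known. Each library's value is given for Trp53, Mdm2, Mdm4, Ppm1d, Cdkn1a and the 6 members with the smallest adjusted p in each comparison, other members by group mean, and up to 4 genes of each other list per genotype comparison; some genes of those lists are not reported here. Promoter and microRNA sequences are from RefSeq (GRCm38.p6). There were 19 alternatives: 2 other scalings, DESeq2 1.42.0, no filter, a replicate block, a fit of only the groups compared, each library left out, and the pair of libraries that stood apart left out.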

Additional observations from a re-analysis of the deposited data

Results flagged for a closer look

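The LPS response of 21 genes differed between genotypes by the test of the difference itself (edgeR's interaction term, adjusted p under 0.05 over 13837 genes), and each is given as the response in Dicer KO minus that in control, in log2 units. The response was more positive in Dicer KO for Mdm2 (0.81), Fas (0.83), Plk2 (0.81) and Btg2 (0.80). Among cell cycle genes it was more negative for Zmat3 (-1.06), Gtse1 (-1.16), Ccng1 (-0.57), Gadd45a (-0.50) and Cdkn1a (-0.47). Among cell death genes it was more negative for Phlda3 (-1.41), Tnfrsf10b (-1.28), Aen (-1.17), Bbc3 (-0.68), Ei24 (-0.54) and Bax (-0.29). The repair and nucleotide genes Ercc5 (-0.89), Rrm2b (-0.56) and Ddb2 (-0.33) and the metabolic genes Sesn1 (-1.59), Sesn2 (-1.56) and Tigar (-0.86) were more negative too. The direction of each held with library totals. The test for an outlying value needs groups of at least 4 libraries and was not run on these groups of 3.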

How the results depend on the processing

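Of 160 tests of a member in a comparison, 125 were called, and 100 of these kept their call and direction in all 19 alternatives. The share of all genes called is given above for each comparison. How many of all genes kept their call in every alternative was not counted. Every reversal came with library totals in place of TMM: genotype with LPS for Ddb2 (-0.22), Bax (-0.22), Ccng1 (-0.026) and Trp53 (-0.18), LPS in control for Btg2 (-0.51), and LPS in Dicer KO for Ddb2 (-0.31), Tigar (-0.64) and Mdm4 (-0.035). With library totals all genes called higher and lower numbered 2229 and 4577 for genotype with vehicle, 1885 and 7626 for genotype with LPS, 3066 and 8737 for LPS in control, 2637 and 9623 for LPS in Dicer KO and 997 and 5136 for the interaction; members numbered 5 and 18 for genotype with LPS, and 5 were higher with LPS in Dicer KO. These shifts follow from the scaling factors. With only the groups compared in the fit, 2 members were lower with vehicle; the cause was not tested. Leaving out 1 library at a time gave 19 to 22 members higher and 2 to 4 lower for genotype with vehicle, 8 to 12 and 6 to 10 for genotype with LPS, 10 and 17 to 18 for LPS in control, 9 and 22 for LPS in Dicer KO, and 4 to 5 and 16 to 17 for the interaction. Low depth limits Perp, Eda2r, Pidd1, Tnfrsf10b and Sesn3 and, with LPS, Gtse1.

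No clear pairing by replicate number was seen, but such correlations in groups of 3 cannot exclude it. Same-numbered vehicle libraries of the genotypes correlated at 0.182, -0.232 and -0.085. Between vehicle and LPS, same-numbered libraries correlated at -0.054, 0.059 and -0.032 in control and 0.113, 0.059 and -0.029 in Dicer KO. With the replicate block, Sesn3 was called for genotype with vehicle (0.45, adjusted p = 0.0388) and for the interaction (0.65, adjusted p = 0.0372), Pmaip1 was not for genotype with LPS (0.43, adjusted p = 0.0547), and no other member's call changed.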
